A study of Mus musculus with 18 samples.

Results

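Mosaic neurospheres at day 4 of differentiation were compared with Pcdh19 knockout neurospheres at the same day. The comparison held 6 of the 18 arrays of the study, 3 mosaic and 3 knockout, chosen by the genotype and day in their labels. Each array measured total RNA of 1 sample of cultured mouse neurospheres. All samples were labelled female, and the arrays went against that label. On the 18 arrays the Y-linked genes Uty, Eif2s3y and Kdm5d read 6.96 to 7.97, 8.24 to 9.04 and 6.85 to 8.20, above the upper quartiles of 6.59 to 6.73, and Xist, the RNA of the silenced X chromosome, read 2.68 to 3.98. Knockout cultures held cells without a working Pcdh19 gene, wild type cultures held cells with it, and mosaic cultures held both kinds together. Each of these was sampled at day 0, as neurospheres, and at day 4, as differentiated neurospheres. The share of wild type cells in the mosaic cultures is not given in the sources used here, nor is the deleted part of the gene or the place of the array's probes within it. The replicates are described as technical, and nothing ties them to separate animals or cultures, so every p-value measures only the spread between these samples.

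Pcdh19 encodes protocadherin 19, an X-linked cell adhesion protein of the cadherin superfamily that binds its like on neighbouring cells. In people, loss of the gene causes an epilepsy that mainly affects females, whose tissues are a patchwork of cells with and without the protein because each cell silences an X chromosome. A mosaic culture puts cells of both genotypes in contact, and a knockout culture has no cell with the protein. Neurospheres are floating clusters of neural stem and progenitor cells, which on differentiation leave the cell cycle and give rise to neurons, astrocytes and oligodendrocytes.

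Values are normalized log2 expression values per gene. A difference is a log2 value, mosaic minus knockout, where 1 stands for a doubling. Of 22180 genes on the arrays with a single symbol, 19016 passed the filter on low values and were tested with limma. The p-values were adjusted over all 19016 genes by the Benjamini-Hochberg method, with 0.05 as the bound for a call. The 18 arrays were alike in scale, with medians of 4.85 to 4.99, and arrays of 1 group correlated at 0.981 to 0.986 over genes. Knockout and mosaic arrays at day 4 correlated with each other at 0.982 to 0.984.

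The third mosaic array at day 4 carried Pcdh19 at 5.52, level with the lowest knockout array at 5.53. The share of wild type cells in that culture is not known, and why it read at the knockout level was not tested. On that array 712 genes lay at least 1.5-fold from the mean of the other 2 mosaic arrays. The figure for the first mosaic array was 705, and for the second it was 389. The knockout arrays at day 4 gave 550, 341 and 492. The array labelled mosaic replicate 3 and the array labelled mosaic replicate 1 therefore stood further from their group than any knockout array at day 4, and values of named genes that moved by over 1.5 times without the third are given without it too.

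No gene passed the test between mosaic and knockout cultures at day 4. The smallest adjusted p over the 19016 genes was 0.453 (limma, Benjamini-Hochberg). At an unadjusted p under 0.05, used here only to count, there were 605 genes higher in the mosaic (3.18% of those tested) and 550 lower (2.89%). With all arrays shifted to a common median these counts were 713 and 409. The median standard error of a difference was 0.126, and the median half-width of its unadjusted 95% interval was 0.267. Differences of ordinary genes below about that size could not be told from 0 even before adjustment. A call over 19016 genes needed a larger difference for the same standard error. Differences ran from -1.18 to 1.06, with a median of 0.00276 over all genes. In size, 82 genes (0.431%) differed at least 1.5-fold and 3 genes (0.0158%) at least 2-fold. The genes and gene groups below are accordingly given as values and counts, and none of their members was called.

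Pcdh19 itself was the check on the cultures. At day 4 its values were 5.70, 5.53 and 5.86 on the knockout arrays, 6.54, 7.09 and 5.52 on the mosaic arrays, and 6.90, 6.98 and 6.81 on the wild type arrays. The first and the second mosaic arrays lay above every knockout array, the third lay below them, and the groups overlapped. The mosaic mean was 6.38 ± 0.79 (SD, n = 3) and the knockout mean 5.70 ± 0.17 (SD, n = 3). The difference was 0.69 ± 0.264 (SE), with a 95% interval of 0.13 to 1.25 and an adjusted p of 0.797 in limma. Without the third mosaic array it was 1.12, with an adjusted p of 0.294. At day 0 the knockout arrays carried 5.39, 5.46 and 5.68 and the mosaic arrays 6.03, 6.31 and 5.65, so there too a mosaic array lay within the knockout range. In RNA of whole cultures, fewer cells of a kind and less RNA per cell cannot be told apart. Against wild type at day 4 the mosaic mean was lower by 0.51 and the knockout mean lower by 1.20, on the log2 scale.

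Genes that lie beside Pcdh19 on the X chromosome showed a single member with an unadjusted p under 0.05 in each direction, of 19 tested. That was 5.26% each way, beside 3.18% higher and 2.89% lower among all genes. Armcx1, which encodes an armadillo-repeat protein of mitochondria, read 5.94, 5.64 and 5.65 on the knockout arrays and 6.09, 6.33 and 5.88 on the mosaic arrays. The first and the second mosaic arrays lay above all knockout arrays and the third within their range, the same order as for Pcdh19. The wild type arrays read 6.45, 6.30 and 6.29. Its difference between mosaic and knockout was 0.36 ± 0.137 (SE), with an adjusted p of 0.797 in limma. Drp2, a relative of dystrophin, lay lower by 0.29 in the mosaic mean, with the same adjusted p of 0.797, and by 0.12 without the third mosaic array. Over the 19 neighbours the median difference was 0.08.

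Of 12 nonclustered protocadherins tested, Pcdh19 included, 5 had a higher mosaic mean and the median difference was -0.01. At an unadjusted p under 0.05 there were 2 higher (16.7%, beside 3.18% of all genes), of which Pcdh19 was one, and 1 lower (8.33%, beside 2.89%). These counts were 1 and 0 without the third mosaic array. Pcdh8, a protocadherin induced by neuronal activity, lay higher by 0.24, and Pcdh18 lower by 0.40, or by 0.15 without the third mosaic array, neither passing the test. Classical cadherins and catenins, the core of adhesive junctions, had a median of 0.00 over 22 members. Cdh19, a cadherin of glia and neural crest, had the highest difference among them at 0.68. The WAVE complex, the actin regulator to which several protocadherins couple, had a median of 0.06 over 11 members.

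**Figure D1:**
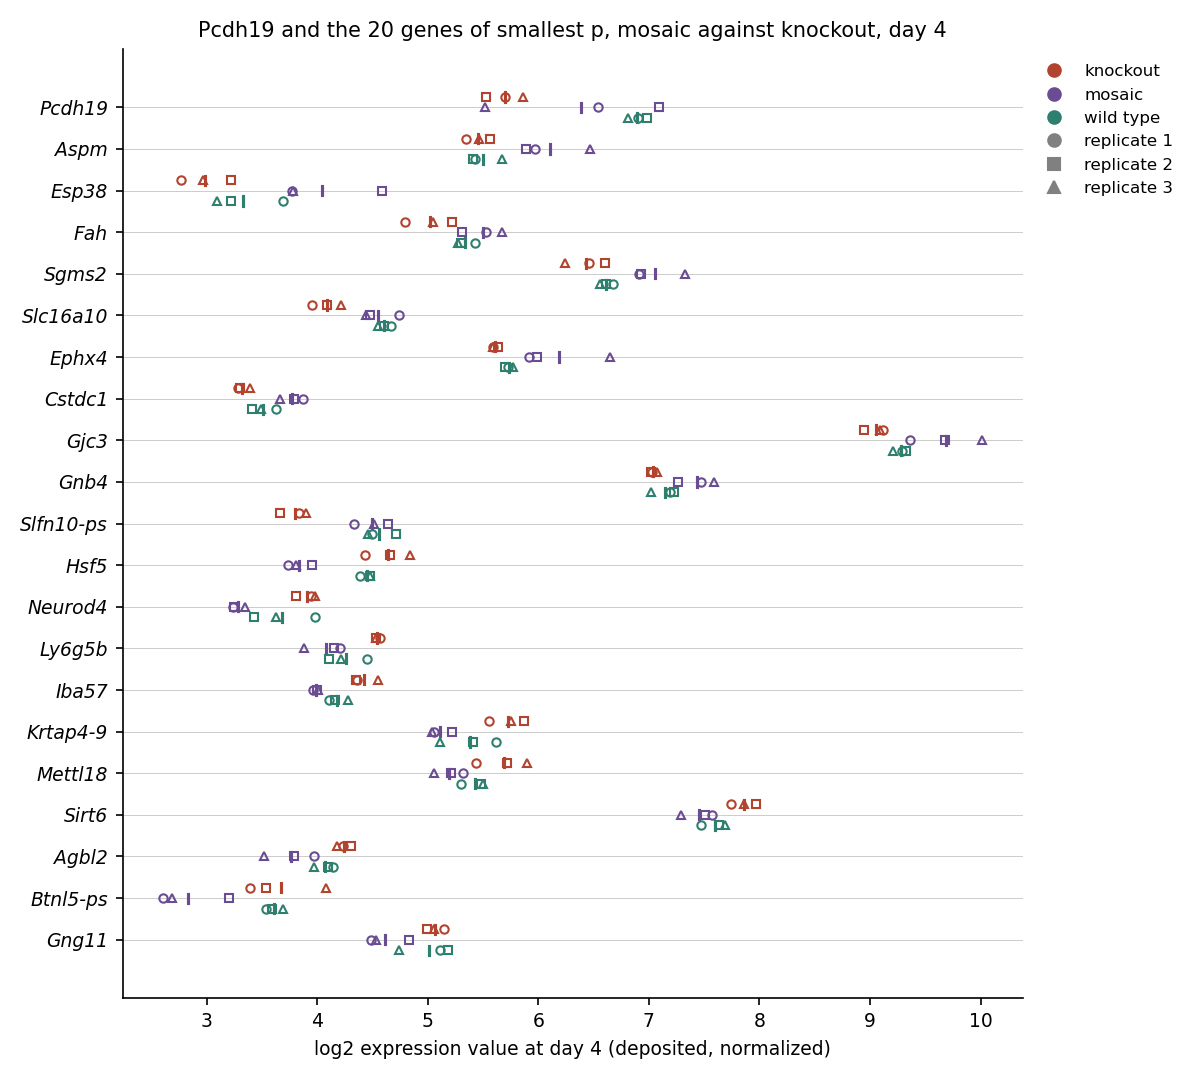
Log2 expression at day 4 of Pcdh19 and of the 10 genes with the smallest p in each direction whose mosaic and knockout arrays did not overlap (x axis, deposited normalized log2 value; symbols are single arrays, vertical ticks are means of 3, wild type shown for reference). Pcdh19 overlaps between the groups through the third mosaic array at 5.52, while Aspm runs from 5.89 to 6.47 in the mosaic against 5.35 to 5.56 in the knockout.

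The genes described next had the smallest p-values on the higher side. They were picked from all genes whose 3 mosaic arrays lay above all 3 knockout arrays, which 806 genes did (4.24%), so their separation is a description. Aspm, a spindle pole protein of dividing neural progenitors, read 5.97, 5.89 and 6.47 in the mosaic and 5.35, 5.56 and 5.46 in the knockout. Every mosaic array stood above every knockout and wild type array, the latter at 5.43, 5.41 and 5.67. The difference was 0.65 ± 0.126 (SE), 1.57-fold, with an adjusted p of 0.544 in limma. At day 0, when the gene was much higher in both cultures, the difference was -0.02.

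Gjc3, the connexin 29 of myelinating glia, read 9.36, 9.68 and 10.01 in the mosaic and 9.12, 8.95 and 9.09 in the knockout. The mosaic arrays were again above all arrays of both pure cultures, with wild type at 9.29, 9.33 and 9.21, and the difference was 0.64 ± 0.148 (SE), adjusted p = 0.636 in limma. Sgms2, a sphingomyelin synthase, lay higher by 0.62 and Ephx4, an epoxide hydrolase family member, by 0.58. Both were highest on the third mosaic array, at 7.33 and 6.65, and without that array Ephx4 lay higher by 0.35. Gnb4, a G protein beta subunit, lay higher by 0.40.

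Fah, which catalyses the last step of tyrosine breakdown, and Slc16a10, a transporter of aromatic amino acids, lay higher by 0.48 and 0.47. Slc16a10 read 4.74, 4.48 and 4.44 in the mosaic and 3.95, 4.09 and 4.22 in the knockout, while wild type read 4.67, 4.60 and 4.55. For this gene the mosaic lay at the wild type level and the knockout below both. The Schlafen pseudogene Slfn10-ps had the same shape, with a mosaic mean of 4.49, a wild type mean of 4.55 and a knockout mean of 3.80. Esp38, of a family of secreted gland peptides, had the largest difference at 1.06, from values of 3.77, 4.59 and 3.78 against 2.77, 3.22 and 2.97. Both it and Cstdc1, a cystatin family gene that lay higher by 0.45, were read near the lower quartile of the arrays, which was 3.57 to 3.62 on these 6.

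On the lower side the smallest p-values were those of Hsf5 and Neurod4, again with no call. The 3 mosaic arrays lay below all 3 knockout arrays for 844 genes (4.44%), from which these were picked. Hsf5, a heat shock factor family member known from the male germ line, read 3.74, 3.95 and 3.81 in the mosaic and 4.43, 4.66 and 4.84 in the knockout. Wild type, at 4.39, 4.48 and 4.48, lay with the knockout. The mosaic values of Hsf5 were near the lower quartiles of their arrays, which were 3.62, 3.59 and 3.57. The difference was -0.81 ± 0.141 (SE), adjusted p = 0.453 in limma. Leaving out the first mosaic array of day 0, which enters only through the shared spread, brought that adjusted p to 0.0277. Neurod4, a proneural transcription factor, read 3.24, 3.25 and 3.35 against 3.94, 3.81 and 3.98, a difference of -0.63 ± 0.115 (SE) with the same adjusted p of 0.453. Its mosaic values were lower than every pure culture array, though wild type at 3.98, 3.43 and 3.63 overlapped the knockout. All mosaic values of Neurod4 lay under the lower quartile of their arrays.

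The remaining genes of this direction were spread over unrelated roles. Iba57, of mitochondrial iron-sulfur cluster assembly, lay lower by 0.43, Mettl18, a histidine methyltransferase, by 0.49, and Sirt6, a chromatin deacylase, by 0.40. Sirt6 read 7.57, 7.51 and 7.29 in the mosaic and 7.74, 7.97 and 7.86 in the knockout. Agbl2, a carboxypeptidase that trims tubulin tails, lay lower by 0.48 at day 4 and higher by 0.51 at day 0. Its mosaic values at day 4 were 3.97, 3.79 and 3.52, the third under the lower quartile of its array, 3.57. Gng11, a G protein gamma subunit, lay lower by 0.45, Ly6g5b by 0.46, the keratin-associated Krtap4-9 by 0.62 and the butyrophilin-like pseudogene Btnl5-ps by 0.84. Adjusted p-values of these 8 genes ran from 0.6 to 0.762 in limma. Btnl5-ps read 2.61, 3.20 and 2.69 in the mosaic and 3.39, 3.54 and 4.08 in the knockout. All of these but the third knockout value lay under the lower quartile of their arrays.

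Genes of mitosis were higher in the mosaic mean for 27 of 27 tested members, against 50.8% of all genes. Of them 12 (44.4%) had an unadjusted p under 0.05 on the higher side, beside 3.18% of all genes, and none on the lower side. The median difference was 0.42, beside 0.00276 over all genes. These genes encode the kinesins, kinetochore proteins, cyclins and checkpoint kinases that build the spindle and part the chromosomes. No member was called, and the smallest adjusted p in the list was 0.544.

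Cenpe, the kinetochore motor, read 5.61, 6.40 and 6.71 in the mosaic and 5.49, 5.54 and 5.68 in the knockout. The second and the third mosaic arrays were far above every knockout array and the first was within their range. The difference was 0.67 ± 0.183 (SE), adjusted p = 0.762 in limma. Mki67, the proliferation antigen Ki-67, read 7.55, 8.22 and 8.69 against 7.13, 7.49 and 7.86, a difference of 0.66 ± 0.214 (SE) with an adjusted p of 0.762. Ndc80, of the kinetochore complex that grips microtubules, read 6.07, 6.63 and 7.12 against 6.10, 6.01 and 6.06, a difference of 0.55 ± 0.206 (SE) with an adjusted p of 0.797. The order of the mosaic arrays was the same for all 3 genes, and without the third the differences were 0.44 for Cenpe, 0.39 for Mki67 and 0.29 for Ndc80. Aspm was the 1 member of the 27 (beside 4.24% of all genes) whose mosaic arrays all lay above the knockout arrays.

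Taking each array as the mean of the 27 members, less the mean of the knockout arrays, the knockout arrays stood at -0.26, 0.06 and 0.21 and the mosaic arrays at -0.17, 0.50 and 0.94. Wild type stood at -0.07, 0.19 and 0.28. The first mosaic array therefore lay inside the knockout range, and the second and the third lay above every array of both pure cultures. The list mean rose with the replicate number in knockout, mosaic and wild type alike, so this order was not particular to the mosaic. Whether same-numbered samples share a source was not tested. Leaving out the third mosaic array brought the list's median to 0.18, with 23 of 27 higher and 2 at an unadjusted p under 0.05. Leaving out the first brought it to 0.76, with 24 of 27 at that p. Leaving out the first knockout array left 4 members at that p, leaving out the second mosaic array left 6, and leaving out the third knockout array gave 18. Over all genes tested, the count on the higher side at that p was 605 with all arrays. It was 443 without the third mosaic array, 1182 without the first and 591 without the second. Without the first and the third knockout array it was 710 and 658.

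Without the first mosaic array at day 4, 10 genes were called at an adjusted p under 0.05 in limma, 9 of them higher in the mosaic. The 9 were the kinesins Kif18a and Kif15 and the kinetochore genes Cenpe and Nuf2, with Ckap2l, Melk, Top2a, Mad2l1 and Anln. Their differences in that fit ran from 0.64 for Anln to 0.99 for Cenpe. With all arrays the same genes differed by 0.37 to 0.67 and none was called. The gene on the lower side was Mir467e, at -1.42, whose value on the first mosaic array, 5.65, was within the knockout range of 5.42 to 5.80. These 10 were named after their values were seen, and they describe the other 5 arrays alone.

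The promoters of 2 genes of the mitosis list are printed to show the element by which many genes of cell division are known to be held down in resting cells, the cell cycle genes homology region. It was searched as TTTGAA on either strand in the bases upstream of each RefSeq start site, and neither it nor the CCAAT box described further on contains the other. Of 23 list members with a promoter in the RefSeq table (GRCm38.p6), 9 (39.1%) held it, beside 18.3% of 27025 genes. Capitals mark 1 match in each, and the windows of Mki67 and Top2a held 2 each. The stretches are from the minus strand, at chr7:135716447-135716502 for Mki67, where the match ends 92 bases before the start site, and at chr11:99024190-99024245 for Top2a, where it reads as the reverse complement and ends 17 bases before the start site. A match of letters is a description and not a shown binding site.
Mki67: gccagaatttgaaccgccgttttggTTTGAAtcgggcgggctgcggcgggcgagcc
Top2a: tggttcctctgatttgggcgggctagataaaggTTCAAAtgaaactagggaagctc
Top2a, the topoisomerase that untangles chromosomes, was chosen for its promoter. It read 6.23, 7.35 and 7.79 in the mosaic and 6.49, 6.73 and 6.83 in the knockout, so its mosaic arrays lay on both sides of the knockout arrays.

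DNA replication genes pointed the same way with smaller differences. Of 26 tested, 24 had a higher mosaic mean (92.3%, beside 50.8% of all genes), and the median was 0.19. On the higher side 1 had an unadjusted p under 0.05 (3.85%, near the 3.18% of all genes). Prim1, the primase subunit, was that gene. It read 6.61, 6.89 and 6.91 in the mosaic and 6.56, 6.53 and 6.35 in the knockout, a difference of 0.32 ± 0.11 (SE) with an adjusted p of 0.762 in limma. Its mosaic arrays lay just above all knockout arrays. As list means, the mosaic arrays stood at -0.06, 0.23 and 0.41 beside knockout arrays at -0.14, 0.07 and 0.07, in the same order as for mitosis. Without the first mosaic array 13 of the 26 had an unadjusted p under 0.05, and without the second or the third knockout array 3 did. Over all genes the count on the higher side was 1182 without the first mosaic array, beside 605 with all arrays. Without the second or the third knockout array it was 507 or 658.

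**Figure D2:**
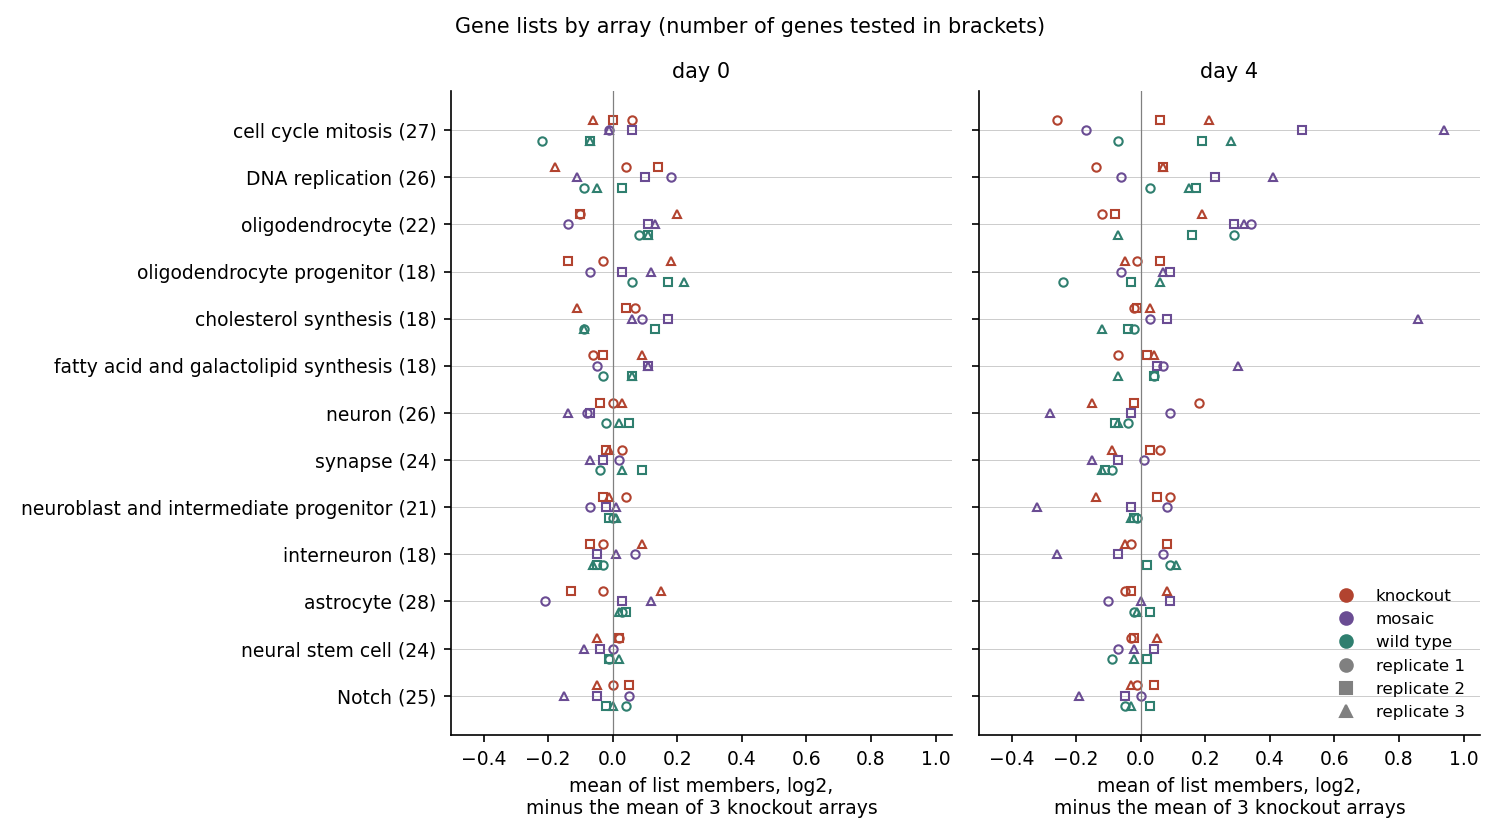
Mean log2 value of the members of 13 gene lists on each array, less the mean of the 3 knockout arrays of that day (left day 0, right day 4; symbols are single arrays, colours are genotypes, numbers of genes in brackets). At day 4 mitosis genes run from -0.17 to 0.94 over the mosaic arrays, cholesterol genes stand apart on the third mosaic array at 0.86, and oligodendrocyte genes lie at 0.29 to 0.34 on all 3 mosaic arrays.

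Genes of differentiated oligodendrocytes, the myelin-forming cells, were higher in the mosaic mean for 20 of 22 members. Of them 8 (36.4%, beside 3.18% of all genes) had an unadjusted p under 0.05, all higher, and 9 (40.9%, beside 4.24%) had all mosaic arrays above all knockout arrays. The median difference was 0.34. As list means the mosaic arrays stood at 0.34, 0.29 and 0.32, and the knockout arrays at -0.12, -0.08 and 0.19. The mosaic arrays were thus above each knockout array for this list, and leaving out any single one of the 6 arrays gave medians of 0.24 to 0.39. The count at an unadjusted p under 0.05 was 3 without the first knockout array and 5 without the second. Over all genes the counts on the higher side in these fits were 710 and 507. Wild type stood at 0.29, 0.16 and -0.07, a range that reached from the knockout to the mosaic level.

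Tspan2, a tetraspanin of myelinating cells, read 8.97, 9.0 and 9.49 in the mosaic and 8.63, 8.32 and 8.82 in the knockout. The difference was 0.56 ± 0.152 (SE), adjusted p = 0.762 in limma, with no overlap. Plekhh1, a gene enriched in oligodendrocytes, read 7.01, 6.94 and 7.0 against 6.33, 6.31 and 6.84, a difference of 0.49 ± 0.155 (SE) with an adjusted p of 0.762. Its mosaic values were nearly equal to each other, and the third knockout array came close to them. Ugt8a, which makes the galactolipids of myelin, read 11.35, 11.35 and 11.33 against 10.94, 10.87 and 11.04, a difference of 0.39 ± 0.17 (SE), adjusted p = 0.797. Gsn, an actin-severing protein, lay higher by 0.34.

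The third mosaic array differed from the other mosaic arrays within this list. Mog and Ermn, genes of late myelin, and Opalin and Enpp6, named next, were chosen after their values were seen. Mog read 7.89, 7.79 and 6.09 in the mosaic and 7.27, 7.10 and 7.87 in the knockout. Ermn read 7.80, 7.73 and 6.07 against 7.26, 6.69 and 7.24. Both genes were lowest on the third mosaic array among all arrays of the 3 genotypes at day 4. On the same array Opalin, a membrane protein of oligodendrocytes, read 6.98, against 6.12 and 5.82 on the other mosaic arrays, and Enpp6, a gene of newly formed oligodendrocytes, read 11.06, against 10.43 and 10.57. Without that array all 22 members had a higher mosaic mean, with a median of 0.27 and 7 at an unadjusted p under 0.05.

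Progenitors of oligodendrocytes gave no such separation. Of 18 progenitor genes 12 had a higher mosaic mean, none had an unadjusted p under 0.05 and the median was 0.02. Olig2, the lineage's transcription factor, had a mean of 11.98 in both cultures, and Pdgfra, the receptor of the progenitors' growth factor, had means of 10.91 and 10.87 in the mosaic and the knockout. Both lay far above the upper quartile of the arrays, which was 6.64 to 6.71, as did the astrocyte transporter Slc1a3 at 11.75 and the neuronal Map2 at 11.13 in the mosaic mean. Fatty acid and galactolipid genes had a median of 0.09 over 18 members, with 3 at an unadjusted p under 0.05 on the higher side (16.7%, beside 3.18%) and 1 on the lower (5.56%, beside 2.89%). The median was 0.02 without the third mosaic array, with 1 member higher at that p. Ugt8a and Fa2h were members of both this list and the oligodendrocyte list.

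**Figure D3:**
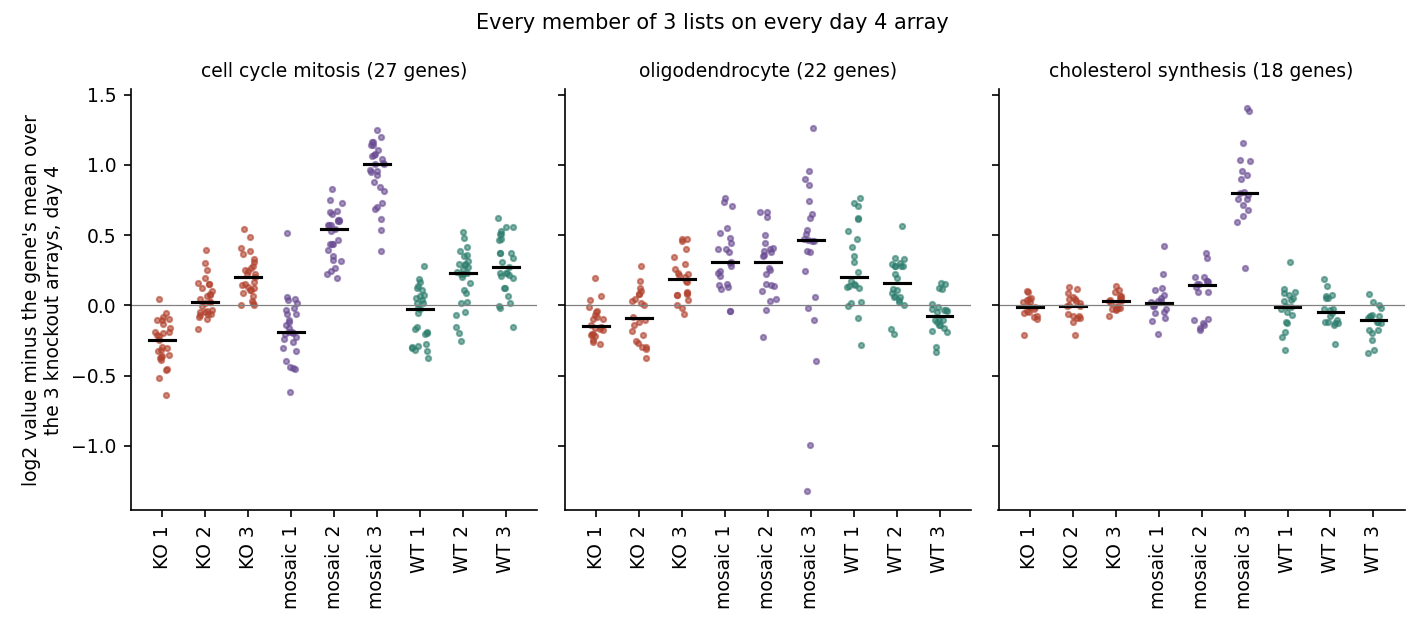
Each point is 1 gene on 1 day 4 array, as its log2 value less its mean over the 3 knockout arrays (y axis); black bars are medians over the list, KO is knockout, WT is wild type, and points are spread sideways at random for legibility. Mitosis genes lie higher on the second and the third mosaic arrays, oligodendrocyte genes on all 3 with Mog and Ermn far below on the third, and cholesterol genes on the third alone.

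Genes of cholesterol synthesis, enzymes and regulators such as Srebf2 and Insig1, were higher in the mosaic mean for 18 of 18 members, with a median of 0.33. Of them 6 (33.3%, beside 3.18% of all genes) had an unadjusted p under 0.05, and 5 (27.8%, beside 4.24%) had mosaic arrays above all knockout arrays. The third mosaic array carried nearly all of this. As list means the mosaic arrays stood at 0.03, 0.08 and 0.86, the knockout arrays at -0.02, -0.01 and 0.03, and wild type at -0.02, -0.04 and -0.12. Without the third mosaic array the median was 0.06, 11 of 18 were higher, and 1 had an unadjusted p under 0.05. That count was 13 without the first or the second mosaic array, 3 without the first knockout array and 2 without the second. Over all genes the count on the higher side was 443 without the third mosaic array, 1182 without the first and 591 without the second. It was 710 and 507 without the first and the second knockout array.

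Hsd17b7, a sterol ketone reductase, read 7.67, 7.79 and 8.83 in the mosaic and 7.55, 7.24 and 7.56 in the knockout, a difference of 0.64 ± 0.25 (SE) with an adjusted p of 0.797 in limma. Ebp, the sterol isomerase whose inhibition is known to favour oligodendrocyte formation, read 8.46, 8.41 and 8.97 against 7.96, 7.98 and 8.18, a difference of 0.57 ± 0.156 (SE) with an adjusted p of 0.762. All 3 mosaic arrays of both genes lay above all knockout arrays, and for Hsd17b7 the third was far above the others. Sqle, the squalene epoxidase, lay higher by 0.35, and Nsdhl, a sterol dehydrogenase, by 0.33. Leaving out the third mosaic array gave differences of 0.28 for Hsd17b7, 0.14 for Sqle and 0.12 for Nsdhl. Lss, the lanosterol synthase, was chosen after its values were seen. It read 8.91, 8.79 and 10.29 in the mosaic and 8.88, 8.92 and 8.86 in the knockout, so the third mosaic array stood alone.

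The sequences of Ebp and Hsd17b7 are shown for the CCAAT box, the binding motif of nuclear factor Y, which works beside the sterol-responsive factors on many genes of this pathway. It was searched as CCAAT on either strand in the same upstream windows. All 14 cholesterol genes with a promoter in the table held it (100%), as did 18 of 23 mitosis genes (78.3%), 8 of 17 oligodendrocyte genes (47.1%) and 37.5% of all genes. The sterol regulatory element, searched as TCACNCCAC, was in 1 of the 14 (7.14%), beside 1.22% of all genes. The stretches below come from the minus strand of GRCm38.p6, at chrX:8193538-8193592 for Ebp and chr1:169969206-169969260 for Hsd17b7. Capitals mark 1 box of the 2 in Ebp and of the 3 in Hsd17b7, here as its reverse complement, which ends 50 and 7 bases before the start site.
Ebp: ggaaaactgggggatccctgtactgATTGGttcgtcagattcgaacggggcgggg
Hsd17b7: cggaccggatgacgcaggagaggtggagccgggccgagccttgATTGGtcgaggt

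Neuronal genes were more often lower in the mosaic mean. Of 26 neuron genes 8 had a higher mosaic mean, none had an unadjusted p under 0.05, and the median was -0.09. Celf4, an RNA-binding protein of excitatory neurons, read 6.84, 6.45 and 5.38 in the mosaic and 7.10, 6.79 and 6.14 in the knockout. The groups overlapped, and the difference was -0.45 with all arrays, -0.03 without the third mosaic array and -0.76 without the first. Ina, the neurofilament alpha-internexin, lay at -0.27, and at 0.01 and -0.44 without these arrays. Of 21 genes of neuroblasts and intermediate progenitors, the cells between stem cell and neuron, 4 had a higher mosaic mean and the median was -0.10. Dcx, the microtubule protein of migrating neuroblasts, read 9.55, 9.37 and 8.82 in the mosaic and 9.94, 9.48 and 9.17 in the knockout, which overlap. Its difference was -0.29, and -0.07 without the third mosaic array. Dcx and Elavl4 were members of both the neuron and the neuroblast list. Without the third mosaic array the medians were 0.03 for neurons, with 17 of 26 higher, and -0.01 for neuroblasts, with 10 of 21 higher. The direction of the neuron list thus turned on that array. Without the first mosaic array the medians were -0.14 and -0.17.

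Notch pathway genes, which hold progenitors undifferentiated, had a higher mosaic mean for 7 of 25 members and a median of -0.11. The receptor Notch2 lay lower by 0.33 and the receptor Notch3 by 0.22, and Dtx4, an E3 ligase of the pathway, lay lower by 0.28. Dtx4 read 8.50, 8.71 and 8.17 in the mosaic and 8.74, 8.73 and 8.76 in the knockout, so the mosaic arrays were below all knockout arrays, the second by little. With Notch2 it made up the 2 members with an unadjusted p under 0.05, beside 2.89% of all genes, and 4 of the 25 had mosaic arrays below all knockout arrays, beside 4.44%. Dll3, a Notch ligand of committed cells, lay higher by 0.21. Without the third mosaic array the median was -0.06, Notch2 lay lower by 0.13 and Dtx4 by 0.14, and no member had an unadjusted p under 0.05.

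Astrocyte genes had a median of -0.02 over 28 members, 9 of them higher. S100b, a calcium-binding protein of astrocytes and of oligodendrocyte lineage cells, read 7.65, 8.22 and 8.85 in the mosaic and 7.76, 7.82 and 7.80 in the knockout. Its first mosaic array lay below all knockout arrays and the others above them, and the difference was 0.45, or 0.14 without the third mosaic array and 0.74 without the first. Sox9, a glial transcription factor, lay at -0.34, and at -0.18 without the third. Neural stem cell genes had a median of -0.03 over 24. Synapse genes had a median of -0.10 over 24 and interneuron genes -0.05 over 18. GABA-A receptor genes, Gphn included, had -0.10 over 10 and glutamate receptor genes -0.02 over 15. Without the third mosaic array the medians were -0.02 for synapse, -0.01 for GABA-A receptor, 0.01 for glutamate receptor and 0.02 for interneuron genes. In that fit 11 of the 18 interneuron genes were higher instead of 6. Axon guidance genes, of 36 tested, had 4 higher (11.1%, beside 3.18% of all genes) and 5 lower (13.9%, beside 2.89%) at an unadjusted p under 0.05, with a median of -0.08. There were 2 higher and 0 lower without the third mosaic array, with a median of 0.

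Lists of signalling and stress had medians of either sign at day 4. Wnt targets had a median of 0.02 over 21, and BMP and TGF-beta targets 0.07 over 20. Genes of interferon response and antigen presentation had -0.01 over 23. Immediate early genes, switched on within minutes of a stimulus, had a median of 0.07 over 23. Feedback genes of the ERK pathway had 0.12 over 16, p53 targets 0.08 over 18, and genes of stress and the unfolded protein response, heat shock genes included, 0.04 over 24. Of the p53 targets 3 (16.7%, beside 3.18%) lay higher at an unadjusted p under 0.05, and 3 (16.7%, beside 4.24%) had all mosaic arrays above all knockout arrays. Cdkn1a, the cell cycle inhibitor p21, read 8.27, 8.34 and 8.73 in the mosaic and 7.86, 8.20 and 8.11 in the knockout, a difference of 0.39 with an adjusted p of 0.797 in limma. Its arrays did not overlap. Without the third mosaic array the difference was 0.24 and no p53 target had an unadjusted p under 0.05. Genes of hypoxia and glycolysis had a median of 0.07 over 19 at day 4, beside 0.31 at day 0. At day 0, 18 of the 19 were higher in the mosaic mean, beside 50.6% of all genes. As list means at day 0 the mosaic arrays stood at 0.07, 0.38 and 0.45 and the knockout arrays at 0.08, -0.07 and -0.01. The first mosaic array thus lay within the knockout range, and wild type was spread widely, at -0.19, 0.37 and 0.08.

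Of the markers of 5 other cell types, none had an unadjusted p under 0.05 between mosaic and knockout. The 14 microglial genes tested had mosaic means of 4.03 to 5.65 and knockout means of 3.93 to 5.79, and their median difference was 0.01. Endothelial genes had mosaic means of 3.75 to 5.04 and a median of 0.02 over 10, with 2 (20%, beside 4.44%) below the knockout on all mosaic arrays, and genes of pericytes and fibroblasts a median of -0.03 over 13. Ependymal genes had 0.09 over 10, with 3 (30%, beside 4.24%) above the knockout on all mosaic arrays, and Schwann cell genes 0.07 over 7. As list means, the mosaic arrays stood between -0.12 and 0.16 of the knockout mean in these 5 lists. No detection call was at hand, so whether any of these genes was above background was not tested.

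**Figure D4:**
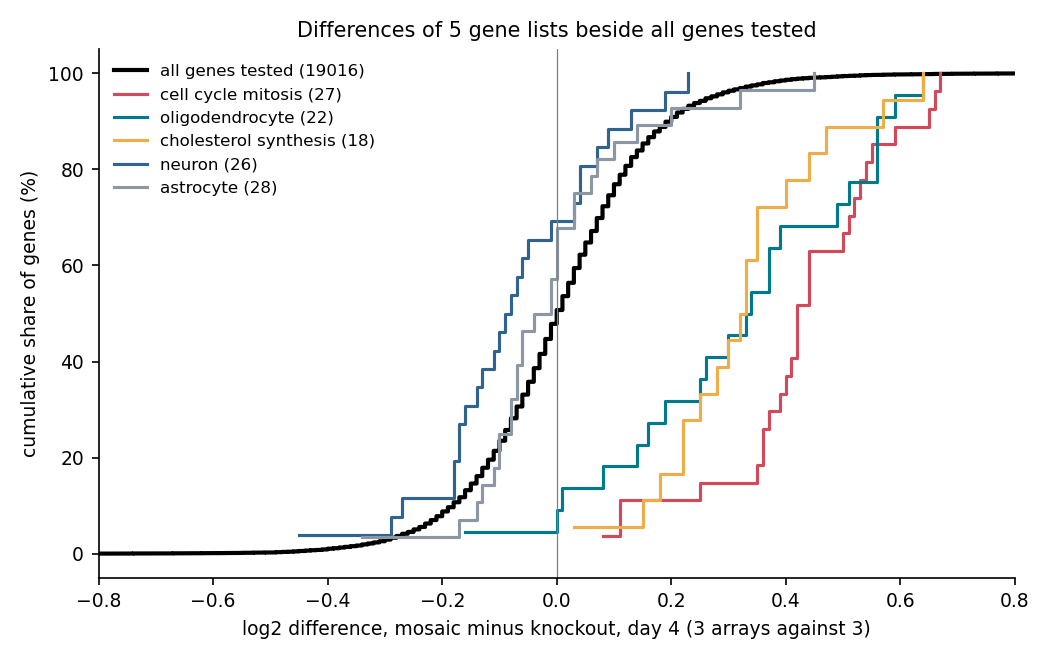
Cumulative share of genes (y axis, percent) by their log2 difference, mosaic minus knockout, at day 4 (x axis), for all 19016 genes tested and for 5 gene lists with their numbers in brackets, with differences beyond 0.8 in size outside the frame. All 27 mitosis and all 18 cholesterol genes lie to the right of 0, whereas 50.8% of all genes do, and the neuron list lies slightly to the left with a median of -0.09.

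At day 0 the same comparison gave no called gene either, with all adjusted p-values at 1 in limma. There were 450 genes higher (2.37%) and 356 lower (1.87%) at an unadjusted p under 0.05. The mosaic arrays lay above all knockout arrays in 5.14% of genes and below them in 4.88%. Mitosis genes had a median of 0.02 and oligodendrocyte genes 0.02 at day 0, and cholesterol genes 0.08. The change of the difference from day 0 to day 4 was tested itself, and no gene was called, with a smallest adjusted p of 0.481. At an unadjusted p under 0.05 815 genes (4.29%) were counted, 374 with a higher change (1.97%) and 441 with a lower one (2.32%). Its median was 0.41 for mitosis genes, 0.27 for oligodendrocyte genes and 0.24 for cholesterol genes, beside 0.00234 for all genes. Mitosis genes were lower at day 4 than at day 0 in both cultures, with median differences of -2.67 in the knockout and -2.14 in the mosaic. Oligodendrocyte genes were higher at day 4, with medians of 2.23 and 2.30. These changes share their day 4 arrays with the comparison above and are not separate evidence.

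The mosaic mean was also set against the mean of wild type and knockout at day 4, both weighted equally since the mixing share is not known. These are means of log2 values, while RNA of mixed cells adds up before the log is taken. An equal mix would lie at or above this mean, so the comparison does not settle where a mix would lie. No gene was called, with a smallest adjusted p of 0.249 in limma. At an unadjusted p under 0.05 there were 1946 genes (10.2%), 1048 higher (5.51%) and 898 lower (4.72%). In 300 genes (1.58%) all mosaic arrays lay above every knockout and wild type array, and in 248 (1.3%) below. The median against the mean of both genotypes was 0.37 for mitosis genes, 0.30 for oligodendrocyte genes and 0.37 for cholesterol genes, beside 0.00215 over all genes. Pcdh19 lay 0.09 above that mean, with an adjusted p of 0.922. Without the first mosaic array 76 genes were called, 51 higher and 25 lower, and the higher ones included Mki67, Top2a, Aspm, Ndc80 and Gjc3, named after their values were seen.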

How the data were processed

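Total RNA of 18 samples was hybridised to Affymetrix gene arrays for mouse, each sample on its own array, with RNA taken by Trizol and columns and labelled with biotin, per the labels. The deposited values are normalized log2 expression values per probe set, as read from their range of 0.722 to 13.97. How background was corrected, how arrays were normalized and the log base: not given in the sources used here. No scanner files were used, so there was no detection call. The number of arrays limits the precision.

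Of 41345 probe sets, 23521 had 1 symbol in the platform annotation, 1814 had several and 16010 none. Only the first kind was used, 23328 of them matched to RefSeq by identifier and 193 not. For 22180 genes, the probe set of highest mean over the 18 arrays stood for the gene. Genes above the 25th percentile of the array on at least 3 arrays were kept, leaving 19016. In R 4.3.3, limma 3.58.1 (with statmod 1.5.0) fitted a mean for each of the 6 groups over all 18 arrays, with 12 residual and 4.36 prior degrees of freedom. Tests were two-sided (lmFit, eBayes), adjusted by Benjamini-Hochberg. The fit was tested on simulated data.

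The text names Pcdh19, per direction 10 genes of smallest p whose arrays did not overlap (no predicted, clone, olfactory, vomeronasal or small RNA genes), and up to 4 members of smallest p per list. Other genes are said to be chosen after their values were seen, or give a marker's level. Members, lists and comparisons were chosen with earlier results of these data known. Some genes were members of several lists, so the lists are not separate observations. The alternatives were a common array median, quantile normalization, no or a stricter filter, the mean of probe sets, a replicate block, a robust variance trend, array weights, only the groups compared, a stricter threshold, a minimum fold and leaving out each array. All probe sets, named or not, were tried after seeing the data.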

Additional observations from a re-analysis of the deposited data

Results flagged for a closer look

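Both results below come from probe sets with no listed gene symbol, which the comparisons above do not use. Over all 41345 probe sets, a choice made after seeing the data, 2 were called in limma when the mosaic mean was set against the mean of wild type and knockout at day 4. Probe set 17200743 lay 1.32 above that mean on the log2 scale, with an adjusted p of 0.0101. Its values were 4.50, 4.45 and 4.16 in the mosaic, 3.46, 3.40 and 3.08 in the knockout and 2.86, 2.92 and 2.56 in wild type. Probe set 17210453 lay 1.15 above, also with an adjusted p of 0.0101, from values of 4.39, 4.28 and 4.64 in the mosaic, 3.45, 3.67 and 3.27 in the knockout and 3.07, 2.89 and 3.39 in wild type. In both, every mosaic array was above every array of the pure cultures. The lower quartiles of the 9 day 4 arrays were 3.57 to 3.64, and every knockout and wild type value of probe set 17200743 lay under its array's, as did every wild type and 2 of 3 knockout values of probe set 17210453. With no detection call, these are differences against levels not shown to be above background. Against the knockout alone the differences were 1.06 and 0.97, with adjusted p-values of 0.353, and neither was called. The gene behind either probe set is not given in the sources used here.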

How the results depend on the processing

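Counts of called genes were 0 with all arrays in each of the 4 comparisons, and stayed 0 under each alternative that kept all arrays and the named genes. For mosaic against knockout at day 4, leaving out 1 array at a time gave 0 to 10 called genes, with 10 without the first mosaic array of day 4 (9 of them higher) and 1, Hsf5, without the first mosaic array of day 0. The change from day 0 to day 4 gave 0 to 1, the mosaic against the mean of both genotypes 0 to 76, and day 0 0 to 1, each over the same left-out arrays. Over all probe sets, a choice made after seeing the data, the mosaic against the mean of both genotypes gave 2 calls. With the replicate block 0 genes were called. Over all genes, same-numbered knockout and mosaic arrays deviated from their group means with correlations of -0.071, -0.046 and 0.052. Those of other pairs ran from -0.068 to 0.101, so the numbers gave no sign of pairing over all genes. Such correlations cannot exclude an order shared by a smaller set of genes. The list means of mitosis genes rose with the replicate number in knockout, mosaic and wild type alike. Pcdh19 stayed higher in the mosaic throughout, at 0.34 to 1.12. Small differences turned sign in 6 named genes, and the cause was not tested. With 1 array left out, Ina ran from -0.46 to 0.01, Gap43 from -0.27 to 0.09, Pecam1 from -0.22 to 0.09, Kdm5d from -0.01 to 0.2 and Tek from 0 to 0.35. Cdh4 was at 0.03 as the mean of probe sets and Tek at -0.02 with array weights. Array weights were 0.575, 1.37 and 0.639 for the mosaic arrays of day 4.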
